A study of Homo sapiens with 3 samples.

Results

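The genes described here are 10 markers of the mesenchymal cell state and of the matrix such cells make: VIM, CDH2, ZEB1, SNAI2, FN1, TGFBI, SPARC, THBS1, CCN1 and CCN2. They were chosen by name as such markers, with earlier results of these data known. Every probe set of the array annotated to one of them alone was read. This gave 24 of 22283 probe sets and 10 of 11963 genes. The cells were CAL 27, an established line from a poorly differentiated (grade G3) squamous carcinoma of the tongue, and each culture was labelled as stably transfected. The vector group carried the empty plasmid pEGFPC1 and made the green fluorescent protein alone, the nm23-H1 group made that protein fused to Nm23-H1, and the nm23-H2 group carried pEGFPC1-nm23-H2. All 3 groups therefore share the plasmid backbone and growth in serum. The series' own text names the nm23-H1 and vector arrays, speaks of clones expressing the fusion and of 1 vector clone, and leaves out nm23-H2, which the sample labels alone describe. Each group was 1 array, so no difference below has a replicate check or a p-value, and construct, transfectant and array cannot be told apart.

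During epithelial-mesenchymal transition, epithelial cells loosen their junctions and take on a migratory, matrix-making state. Transcription factors of the ZEB and SNAI families repress the E-cadherin gene, intermediate filaments shift from keratins towards vimentin, and N-cadherin and fibronectin appear. Matricellular proteins such as SPARC, thrombospondin 1 and the CCN family are secreted into the matrix but act more as signals than as scaffold, and several of their genes are classical targets of TGF-beta and of the YAP and TEAD factors. NME1, which encodes Nm23-H1, is known as a metastasis suppressor gene, and NME2 encodes its close relative Nm23-H2.

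By the brightest probe set of each gene, SPARC and VIM were the 2 members that differed by 2-fold or more from the vector array. Both were lower with nm23-H1 and with nm23-H2. Their promoters are given together with those of TGFBI and THBS1, the members with the highest and the most probe-dependent values on the transfectant arrays. Each line gives the 250 bases before the RefSeq gene start in assembly GRCh38.p14, read 5′ to 3′ along the gene, with motif matches in capitals.
SPARC (chr5:151686916-151687165, minus strand): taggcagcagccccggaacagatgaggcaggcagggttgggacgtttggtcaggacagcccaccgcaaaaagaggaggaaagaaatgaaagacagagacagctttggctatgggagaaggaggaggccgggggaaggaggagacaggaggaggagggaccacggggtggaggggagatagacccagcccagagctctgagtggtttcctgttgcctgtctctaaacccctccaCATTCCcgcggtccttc
VIM (chr10:17227991-17228240, plus strand): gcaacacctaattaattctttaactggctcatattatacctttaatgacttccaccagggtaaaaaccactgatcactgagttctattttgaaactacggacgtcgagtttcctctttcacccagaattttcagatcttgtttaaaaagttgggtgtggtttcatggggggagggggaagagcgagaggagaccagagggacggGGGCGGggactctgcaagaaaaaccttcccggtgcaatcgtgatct
TGFBI (chr5:136028738-136028987, plus strand): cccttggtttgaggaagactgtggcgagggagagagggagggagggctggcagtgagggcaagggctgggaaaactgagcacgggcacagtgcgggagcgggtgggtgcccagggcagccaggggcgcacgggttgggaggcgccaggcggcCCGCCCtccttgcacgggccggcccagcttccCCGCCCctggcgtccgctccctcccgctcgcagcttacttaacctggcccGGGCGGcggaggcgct
THBS1 (chr15:39580829-39581078, plus strand): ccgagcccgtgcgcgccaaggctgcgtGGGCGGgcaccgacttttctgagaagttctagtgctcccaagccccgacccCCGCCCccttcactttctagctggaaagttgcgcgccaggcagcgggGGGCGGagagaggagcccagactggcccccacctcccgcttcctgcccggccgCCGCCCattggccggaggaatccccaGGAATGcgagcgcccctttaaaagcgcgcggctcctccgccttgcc
The capitals mark 6 motifs searched on both strands: GGAATG of the TEAD factors, TGANTCA of AP-1, the E-box CAGGTG bound by ZEB and SNAI factors, CAGACA of the SMADs, the CArG box of SRF, and GGGCGG of SP1. The TEAD letters occur once in SPARC, on the opposite strand as CATTCC, and once in THBS1, while VIM and TGFBI hold matches to the SP1 letters alone. Matches in the printed windows do not overlap each other. Of the 8 members with a promoter in the RefSeq table, 3 held the TEAD letters (SPARC, THBS1 and CCN2), against 11.9% of 27305 promoters of the same length. The E-box letters were in 1, ZEB1, against 17.5%, and the SP1 letters in 7 against 42.3%. Among the promoters of 6580 measured genes the shares were 9.32% for TEAD, 15.5% for the E-box and 65.7% for SP1. The letters of AP-1, SMAD and the CArG box were in 0 of the 8, against 6.60%, 13.6% and 1.14% of all promoters and 4.22%, 9.97% and 1.23% of those of measured genes. A match describes the letters only.

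Array signals were brought to a common scale, and values under 28.3 signal units, the median of all scaled values, were set to that floor, so where the dimmer array lay at the floor the fold is a lower bound. In a gene with several probe sets the value used for counts was that of the brightest on average, leaving probe sets ending in _x_at (open to cross-hybridisation) to last. Of the 24 member probe sets, 9 were above the floor on all 3 arrays, 4 on 1 or 2 arrays, and 11 on none. Without replicates, error could be gauged only from how far probe sets for 1 gene disagreed (probe error), with an SD of 0.33 (log2) for nm23-H1 minus vector, 0.35 for nm23-H2 minus vector and 0.38 for nm23-H1 minus nm23-H2. The probe error comes from probe sets on the same arrays, above the floor on both arrays compared. It holds no variation between cultures or hybridisations and does not cover signals under the floor. As checks of the labels, the NME1 probe set read 1519 scaled units with vector, 2379 with nm23-H1 and 1132 with nm23-H2, and the one annotated to both NME2 and the NME1-NME2 read-through read 2272, 2323 and 4845. All 7 squamous keratinocyte markers with a probe set were above the floor on every array, among them KRT14, while 2 to 3 of 10 fibroblast, 0 to 1 of 7 endothelial and 1 to 3 of 7 leukocyte markers were. The summed signal of the fibroblast markers was 246 with vector, 238 with nm23-H1 and 218 with nm23-H2, and FBLN1 was their brightest member on each array. In the same order the squamous markers summed to 30078, 25610 and 41031 (median difference -0.14 with nm23-H1 and 0.39 with nm23-H2), the leukocyte markers to 179, 242 and 130, and the endothelial markers to 60.4, 88.6 and 56.5. All 3 measured leukocyte markers were above vector with nm23-H1. Their median of 0.82 was the value of CD14, a bound, and CD3E read only 31.7 units with vector. The brightest, CD53, differed by 0.13, inside the probe error. No marker was at 0, and their part in the results was not tested. In RNA from a whole culture, fewer cells of a kind and less RNA per cell cannot be told apart.

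**Figure D1:**
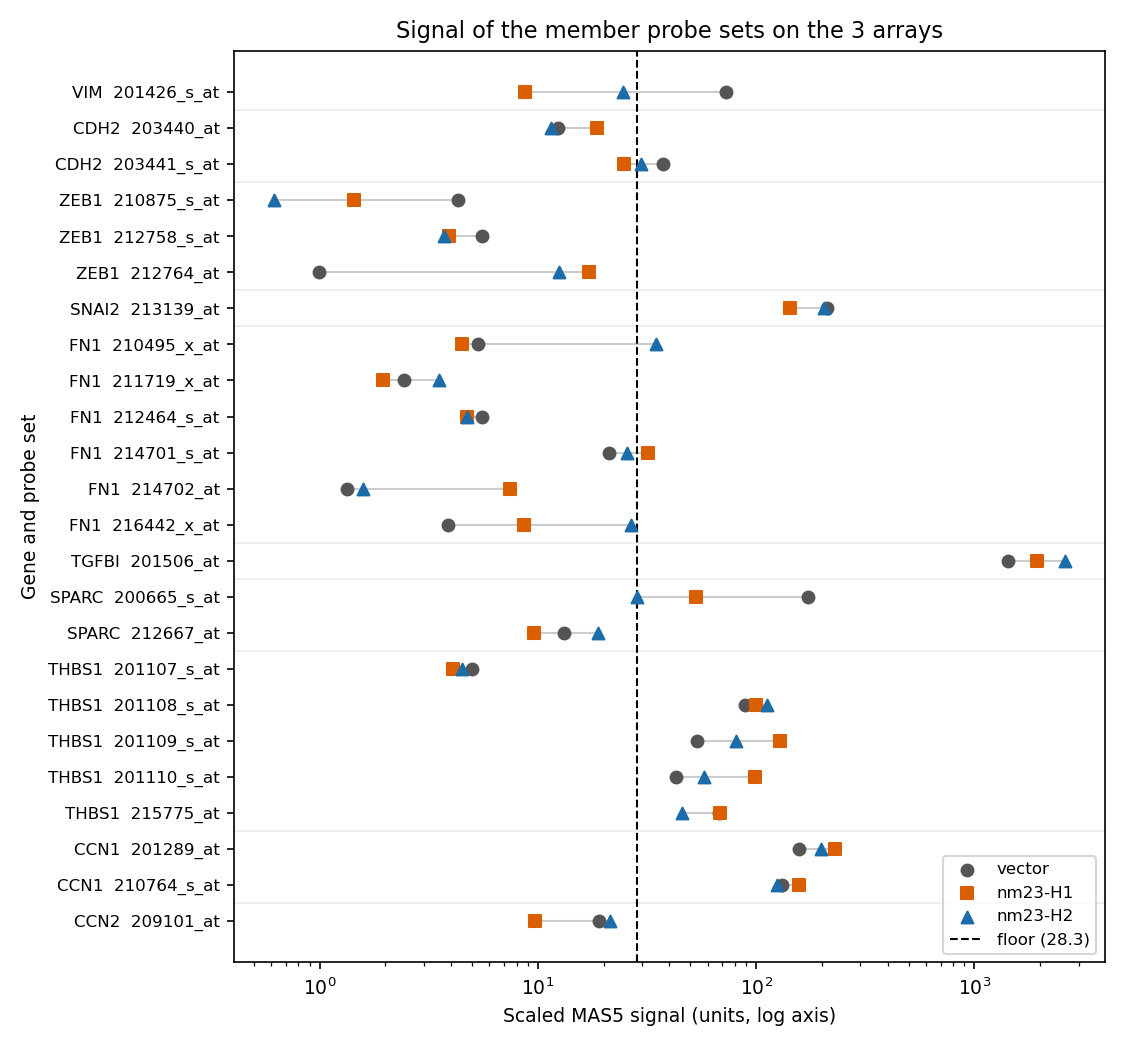
Scaled MAS5 signal (x axis, log scale) of the 24 probe sets annotated to the 10 genes (rows), with 1 point per array and a dashed line at the floor of 28.3 units. TGFBI sits above 1000 units on all 3 arrays, and SPARC 200665_s_at and VIM run from the vector point down to the transfectant points. Every point of the other SPARC probe set, 212667_at, and of ZEB1 and CCN2 lies left of the floor.

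VIM encodes vimentin, the intermediate filament of mesenchymal cells. Its single probe set, 201426_s_at, read 72.4 scaled units with vector, 8.72 with nm23-H1 and 24.7 with nm23-H2. Only the vector array was above the floor, so VIM was at least 2.55-fold lower on each transfectant array. The nm23-H1 and nm23-H2 levels were both under the floor and were not set in order. Among 7986 measured genes, 52 were as low or lower than VIM for nm23-H1 against vector, and 76 for nm23-H2. The bound depends on the floor: it was -0.13 (log2) in place of -1.35 when the floor was raised to the 70th percentile of all values (66.2 units), where vector itself was only just above it.

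CDH2 encodes N-cadherin, the adhesion molecule that mesenchymal cells carry in place of E-cadherin. Its brighter probe set, 203441_s_at, read 37.5 units with vector, 24.7 with nm23-H1 and 29.7 with nm23-H2, all close to the floor. The log2 differences from vector were -0.41 as a bound and -0.34, beside probe errors of 0.33 and 0.35, and the other CDH2 probe set was under the floor throughout. As deposited, 203441_s_at read 33.9 with vector and 33.7 with nm23-H2, so the -0.34 depended on the scaling. CDH1, the E-cadherin gene, was above the floor on every array, at 277 units with vector, 196 with nm23-H1 and 301 with nm23-H2. The CDH1 differences from vector were -0.50 and 0.12 on the log2 scale, both under 2-fold, and its other detected probe set gave 0.34 and 0.17, so the direction with nm23-H1 depended on the probe set.

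The transcription factor genes ZEB1 and SNAI2 stood far apart in detection. All 3 ZEB1 probe sets were under the floor on all 3 arrays, the highest reading being 17.2 units with nm23-H1, so no ZEB1 difference could be given. SNAI2, which encodes Slug, was above the floor everywhere, at 211 units with vector, 144 with nm23-H1 and 205 with nm23-H2. The nm23-H1 array was the low one, 1.47-fold below vector (-0.55 log2) and 1.43-fold below nm23-H2. Vector and nm23-H2 differed by -0.04, well inside the probe error, and as deposited, without scaling, the sign of that difference was the opposite (0.29).

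FN1 encodes fibronectin, the main fibrillar matrix protein of migrating cells, and was covered by 6 probe sets. Of these, 4 were under the floor on all arrays, and the other 2 passed it on 1 array each and disagreed on which. The probe set 214701_s_at read 21.3 units with vector, 32.1 with nm23-H1 and 25.6 with nm23-H2, so nm23-H1 was at least 1.13-fold above vector. The probe set 210495_x_at read 5.31 and 4.51 units with vector and nm23-H1 and 34.9 with nm23-H2, at least 1.23-fold above the floor on the other arrays. A further _x_at probe set, 216442_x_at, read 3.87, 8.61 and 26.6 units in the same order and was also highest with nm23-H2, though still under the floor. No FN1 reading on any array exceeded 34.9 units, close to the floor.

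TGFBI encodes a secreted matrix protein induced by TGF-beta and was the member with the highest signal, although levels of different probe sets are not comparable. Its single probe set, 201506_at, read 1419.6 units with vector, 1933 with nm23-H1 and 2604 with nm23-H2. Both transfectant arrays were above vector, by 1.36-fold (0.45 log2) and 1.83-fold (0.88), and nm23-H1 was 1.35-fold below nm23-H2. Of the 7986 measured genes, 383 were as high or higher than TGFBI for nm23-H2 against vector. The difference for nm23-H2 passed 2-fold only in the values as deposited (1.20 log2), and in the other settings tried it lay between 0.74 and 0.88.

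SPARC encodes osteonectin, a collagen-binding matricellular glycoprotein, and had the widest range of the members at this floor. With a lower floor VIM spans more, -3.05 (log2) for nm23-H1 with the floor at the 25th percentile, against -2.60 for SPARC with nm23-H2. The probe set 200665_s_at read 174 units with vector, 53.2 with nm23-H1 and 28.5 with nm23-H2. SPARC was 3.26-fold lower with nm23-H1 (-1.71 log2) and 6.08-fold lower with nm23-H2 (-2.60), and nm23-H1 was 1.86-fold above nm23-H2. The nm23-H2 reading was barely above the floor of 28.3 units, so that the last 2 folds rest on a signal at the detection limit. Among all measured genes, 19 were as low or lower than SPARC for nm23-H1 and 7 for nm23-H2. The other SPARC probe set, 212667_at, was under the floor on all arrays at 13.2, 9.64 and 18.9 units and gave no difference. By the mean of both probe sets the log2 differences were -0.85 and -1.30, the first of them under 2-fold. Set to the floor on every array, 212667_at adds no difference to that mean. These values are therefore fixed by 200665_s_at and are no second estimate.

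The 5 genes with the pair of differences from vector closest to that of SPARC, by distance on the log2 plane over these 3 arrays, were GSTM3, HSPA2, PLAC8, TPM1 and CPVL. GSTM3, a glutathione transferase gene, lay nearest at 0.24, with differences of -1.67 for nm23-H1 and -2.85 for nm23-H2. TPM1, which encodes a tropomyosin of actin filaments, lay at 1.04, with -1.12 and -1.74. CPVL, under the floor on both transfectant arrays, was a bound.

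THBS1 encodes thrombospondin 1, a matricellular protein that can activate latent TGF-beta, and its 5 probe sets gave different answers. The brightest, 201108_s_at, read 89.1 units with vector, 100.1 with nm23-H1 and 112 with nm23-H2, a difference of 0.17 and 0.33 on the log2 scale. The probe sets 201109_s_at and 201110_s_at showed nm23-H1 highest instead. The first of them read 53.8, 129 and 80.7 units in the order vector, nm23-H1, nm23-H2, and the second 42.7, 98.4 and 57.8. By these 2 probe sets THBS1 was 2.40-fold and 2.30-fold higher with nm23-H1 than with vector, and differed by 0.58 and 0.44 (log2) with nm23-H2. The fourth, 215775_at, read 67.7, 68.2 and 45.8 units, which put nm23-H1 level with vector (0.01 log2) and nm23-H2 lower (-0.56). The fifth was under the floor on all arrays. All 4 detected probe sets were at or above vector with nm23-H1, but they ranged from 0.01 to 1.26 (log2), and for nm23-H2 they ranged from -0.56 to 0.58 and had no common direction.

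CCN1 and CCN2 encode secreted regulators of adhesion and growth factor signalling, formerly named CYR61 and CTGF. CCN1 was above the floor by both of its probe sets. The brighter, 201289_at, read 157 units with vector, 229 with nm23-H1 and 197 with nm23-H2, and the other, 210764_s_at, read 131, 158 and 124. After scaling, both placed nm23-H1 highest, by 0.55 and 0.27 (log2) over vector, while for nm23-H2 they gave 0.33 and -0.07 (log2) and differed in sign. As deposited, 201289_at read 223.5 with nm23-H1 and 224 with nm23-H2, so its order of these 2 arrays depended on the scaling. CCN2 had 1 probe set, 209101_at, which was under the floor on every array at 19.0, 9.74 and 21.3 units, so no CCN2 difference was given.

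**Figure D2:**
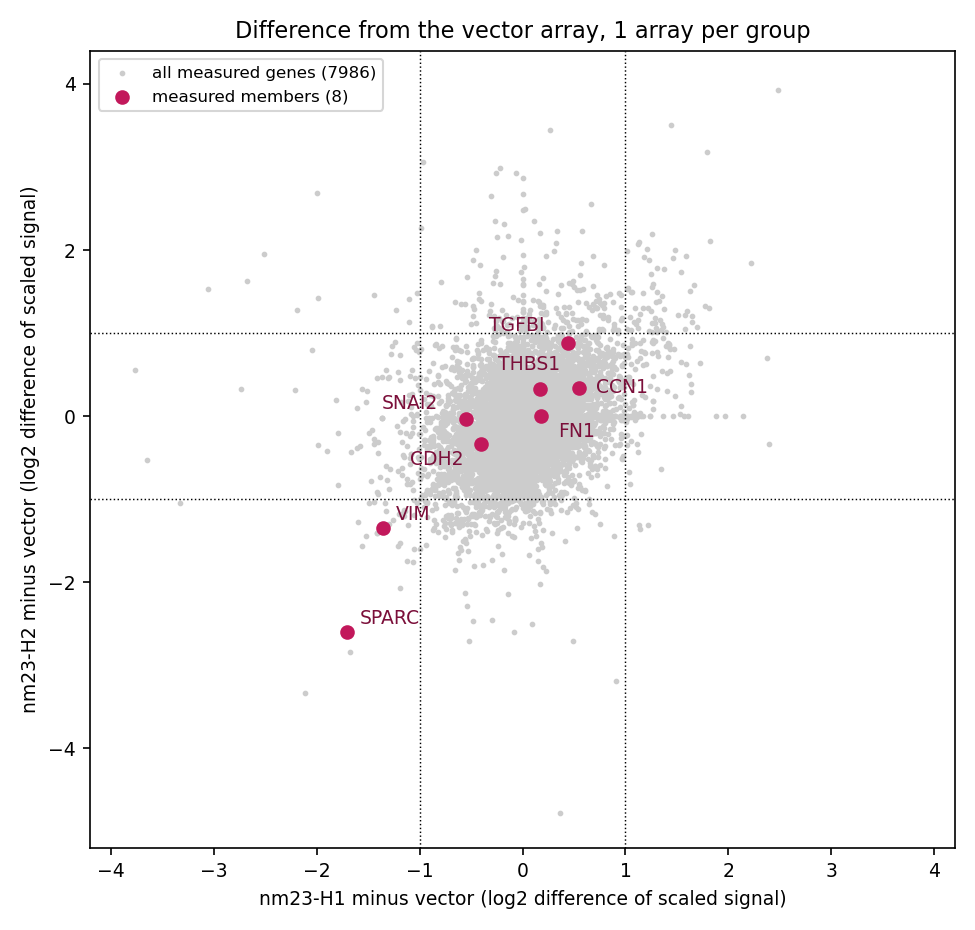
Log2 difference from the vector array for nm23-H1 (x axis) and nm23-H2 (y axis), with all 7986 measured genes in grey, the 8 measured members in red and dotted lines at 2-fold. SPARC (-1.71, -2.60) and VIM (-1.35 on both axes, a bound) lie beyond 2-fold on both axes. The other 6 lie within 2-fold of vector by their brightest probe set, the one drawn. Both axes use the same vector array, and FN1 was under the floor on 2 of the 3 arrays.

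Across the members, 8 of 10 were measured, that is, above the floor on at least 1 array. For nm23-H1 minus vector, 2 of the 8 were at least 2-fold lower (SPARC and VIM), against 1.73% of all measured genes, and 0 were at least 2-fold higher, against 2.14%. For nm23-H2 minus vector, the same 2 genes were at least 2-fold lower, against 3.61%, and 0 were higher, against 3.59%. For nm23-H1 minus nm23-H2, 0 members were 2-fold different either way, against 3.76% higher and 3.81% lower over all genes. With plain _at probe sets alone, 0 members were 2-fold lower on either array, since VIM has none and that of SPARC was under the floor. Both comparisons with vector use the same vector array, so they are not independent of each other. The members were chosen with earlier results of these data known, so their counts beside these shares are a description only. By probe set rather than by gene, nm23-H1 minus vector gave 2 higher (both THBS1, against 2.16%) and 2 lower (against 1.69%) of the 13 detected. The median log2 difference of the 8 was -0.12 for nm23-H1 and -0.02 for nm23-H2, beside 0 and -0.06 over all measured genes. The members did not move as 1 block: the filament gene VIM and the matricellular gene SPARC were low on both transfectant arrays, while TGFBI was above vector on both. SPARC and TGFBI both lie on chromosome 5 and went opposite ways.

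The numbers of 2-fold genes over the whole array depend on the scaling. For nm23-H1 minus vector 171 genes lay 2-fold or more above and 138 below, and 209 and 93 in the values as deposited. For nm23-H2 minus vector they were 287 and 288, then 634 and 107 as deposited, and 245 and 382 when arrays were matched on the median of their detected signals. For nm23-H1 minus nm23-H2 they were 300 and 304, with 171 and 499 as deposited and 404 and 256 with matched medians. As deposited, the median of all genes lay 0.23 higher (log2) for nm23-H2 minus vector than after scaling, and 0.15 lower for nm23-H1 minus nm23-H2.

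No other mesenchymal gene on the list was 2-fold away from the vector array by its brightest probe set. Of 28 listed, 14 were measured, and 0 passed 2-fold in either direction on either transfectant array. As deposited, 1 was 2-fold higher with nm23-H2, beside 634 of all 7948 measured genes. With quantile normalization 1 was 2-fold lower with nm23-H1, beside 154 of 7942. With the chosen scaling, 2.14% of all measured genes were 2-fold higher and 1.73% lower with nm23-H1, and 3.59% and 3.61% with nm23-H2. At such shares a count of 0 among 14 is not particular to these genes. Their median log2 differences were -0.03 for nm23-H1 and -0.04 for nm23-H2. TIMP3, a matrix-bound inhibitor of metalloproteinases, came closest, at 83.2 units with vector, 43.5 with nm23-H1 and 101 with nm23-H2 (-0.94 and 0.28 log2). Its 3 other probe sets ranged from -0.58 to 0 for nm23-H1 and from 0.73 to 2.48 for nm23-H2. COL5A1, a fibrillar collagen chain, differed by 0.32 and 0.75, with its other 2 probe sets between -0.85 and 0.07 for nm23-H1 and between 0.70 and 1.03 for nm23-H2. S100A4, a calcium-binding protein of migrating cells, and FSTL1 differed by -0.69 and -0.71 with nm23-H2 and by -0.06 and 0.03 with nm23-H1, the latter 2 changing sign with the scaling.

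Other matricellular genes were measured for 12 of 19, again with 0 at 2-fold against vector on either array, beside the same shares over all genes. Their medians were 0.07 for nm23-H1 and -0.12 for nm23-H2. SPARCL1, a relative of SPARC, read 40.7 units with vector, 53.9 with nm23-H1 and 25.9 with nm23-H2. Its differences from vector were 0.41 and -0.52, the latter a bound, so with nm23-H1 it lay on the other side of vector from SPARC. THBS3 and THBS4, relatives of THBS1, differed by -0.50 and 0.52 with nm23-H1 and by -0.77 (a bound) and 0.30 with nm23-H2. FBLN1, which encodes fibulin 1, differed by -0.41 and -0.63, but its 4 other probe sets ranged from -0.95 to 0.70 and from -0.18 to 1.65.

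Receptors that bind fibronectin, thrombospondin and CCN proteins lay mostly above vector with nm23-H2 and on either side of it with nm23-H1. Of 13 measured among 16, 11 were above vector with nm23-H2 and 1 below, where 3201 of all 7986 measured genes were above and 4347 below. The median of 0.45 was the value of LRP1, a bound with vector under the floor, and ITGAV (0.31) was a bound too. With nm23-H2, other probe sets of ITGB5 (-0.72 to 0.22), ITGA6 (-0.09) and CD44 (-0.14 to 0.52) reached below vector. The other SDC1 probe set (0.28) and those of CD47 lay above it. The 2-fold mark was passed by 2 upwards and 0 downwards, against 3.59% and 3.61% of all measured genes. As deposited 5 passed it upwards, beside 634 of all 7948 measured genes, and with matched medians 1, beside 245 of 8016. With nm23-H1, 5 were above and 7 below, the median was -0.10, and 1 was at least 2-fold lower, against 1.73% of all measured genes. ITGA5, the alpha chain of the fibronectin receptor, read 102 units with vector, 47.6 with nm23-H1 and 272 with nm23-H2. It was therefore 2.14-fold lower with nm23-H1, 2.67-fold higher with nm23-H2 and 5.72-fold lower with nm23-H1 than with nm23-H2, while FN1 itself was near the floor throughout. ITGA3, a laminin-binding chain, was 1.17-fold below vector with nm23-H1 and 2.09-fold above it with nm23-H2 (0.98 log2, under 2-fold, with matched medians). CD47, a thrombospondin receptor, and SDC4, a heparan sulphate proteoglycan that binds fibronectin, were each 1.65-fold above vector with nm23-H2 and within 1.10-fold of it with nm23-H1. The 2 other CD47 probe sets gave 0.28 and 0.58 (log2) for nm23-H1 and 0.67 to 1.09 for nm23-H2.

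Of the TGF-beta ligands, receptors, SMADs and targets, 15 of 21 were measured, and each comparison with vector held 2 at least 2-fold higher and 0 lower. Over all measured genes, 2.14% were higher and 1.73% lower with nm23-H1, and 3.59% and 3.61% with nm23-H2. LTBP2, which encodes an elastic matrix protein placed by name in the LTBP family, was higher on both arrays. It read 59.9 units with vector, 181 with nm23-H1 and 227 with nm23-H2 (3.02-fold and 3.80-fold). LTBP3, a related gene, was higher by 2.64-fold and 1.43-fold on the 2 arrays. SMAD3, a transducer of the TGF-beta receptor, was 1.84-fold and 2.59-fold higher by its brightest probe set, while its 3 others gave 0.31 to 0.49 (log2) for nm23-H1 and -0.10 to 1.06 for nm23-H2. TGFB3, a ligand, differed by -0.43 and -0.96. The list's medians were -0.02 and 0, and for nm23-H2 the 2-fold counts were 4 higher and 0 lower as deposited and 2 higher and 2 lower with matched medians. Over all measured genes these counts were 634 and 107 of 7948 as deposited, and 245 and 382 of 8016 with matched medians.

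Genes of YAP, TAZ, the TEAD factors and their targets, measured for 13 of 20, had medians of -0.20 with nm23-H1 and 0.08 with nm23-H2. ARHGEF17 was at least 2.21-fold lower on both arrays (-0.997 log2 as deposited, just under 2-fold), and F3, the tissue factor gene, was 1.74-fold lower with nm23-H1 and 3.07-fold higher with nm23-H2. NT5E was under the floor with vector and nm23-H1 and at least 1.57-fold above it with nm23-H2. FSTL1 is on this list too. ARHGEF17 was the only gene of this list at 2-fold with nm23-H1, where 1.73% of all measured genes were 2-fold lower. With nm23-H2 the count was 1 higher and 1 lower, against 3.59% and 3.61%.

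Epithelial adhesion genes and regulators were measured for 26 of 32, with medians of -0.03 and 0.03. The 2-fold mark was passed by 2 upwards and 2 downwards with nm23-H1, against 2.14% and 1.73% of all measured genes. With nm23-H2 it was passed by 1 each way, against 3.59% and 3.61%. KRT8 and KRT18, the keratin pair of simple epithelia, were 2.72-fold and 2.11-fold lower with nm23-H1, each by an _x_at probe set. With nm23-H2, KRT8 was 2.04-fold lower and KRT18 1.15-fold lower, but the KRT18 difference was 0.13 (log2) above vector as deposited. CLDN1, a tight junction claudin, was 2.15-fold higher with nm23-H1 and differed by 0.03 (log2) with nm23-H2. LAMB3, a laminin chain of the basement membrane, was 1.41-fold and 3.08-fold higher.

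**Figure D3:**
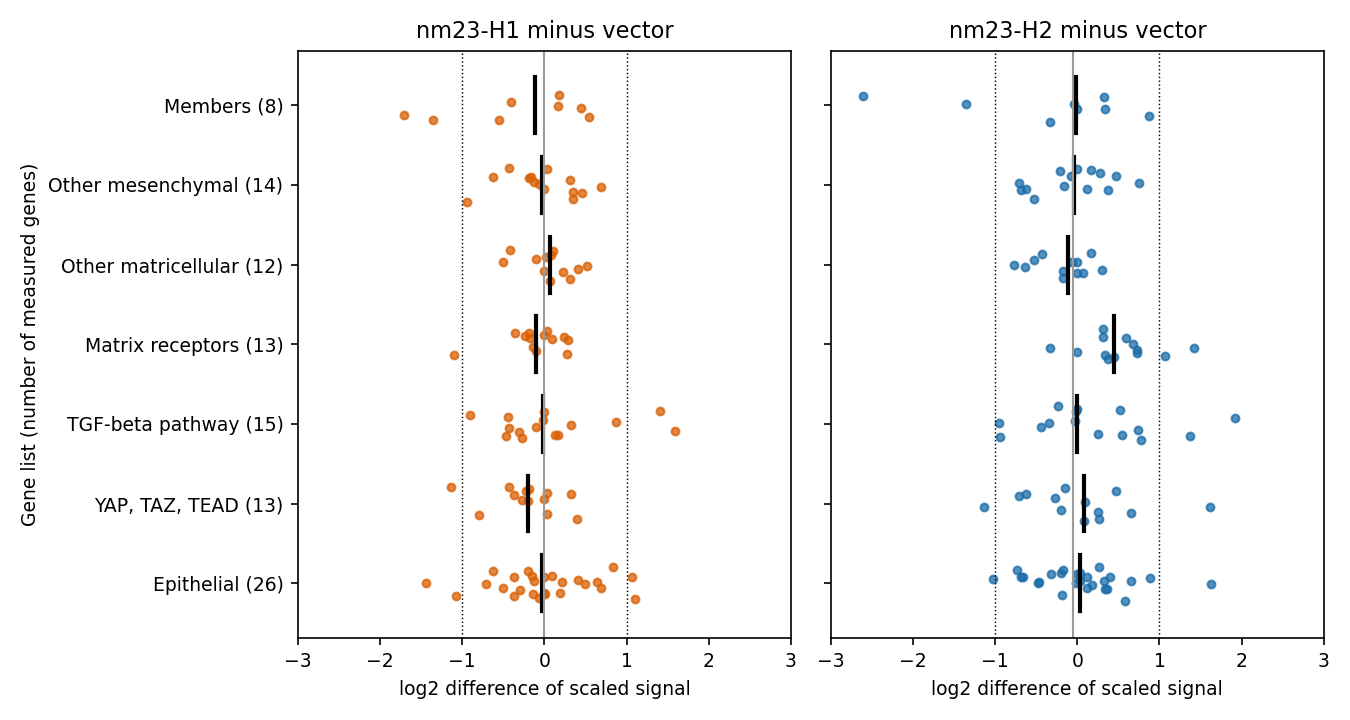
Log2 differences from vector (x axis) for nm23-H1 (left) and nm23-H2 (right), with 1 point per measured gene, a black bar at each list's median, a grey line at the median of all genes and dotted lines at 2-fold. Among the lists drawn, matrix receptors sit mostly to the right of the grey line with nm23-H2 (median 0.45, a bound). SPARC and VIM are the 2 leftmost points of the members in both panels.

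**Figure D4:**
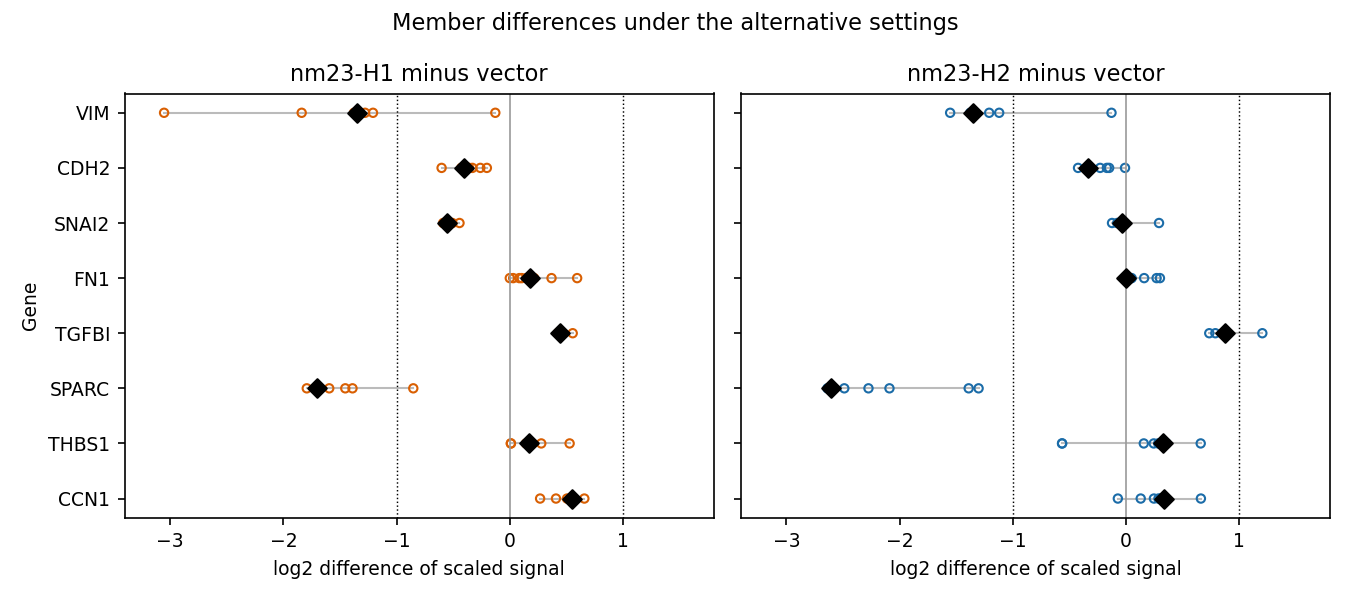
Log2 difference from vector (x axis) of the 8 measured members under the chosen setting (black diamonds) and under each alternative that gave a value (open circles), for nm23-H1 (left) and nm23-H2 (right). SPARC stays below 0 throughout, between -1.79 and -0.85 for nm23-H1 and between -2.64 and -1.30 for nm23-H2, and VIM spans the widest range for nm23-H1, from -3.05 to -0.13. The -0.85 and -1.30 of SPARC are means with its undetected probe set, which counts as no difference.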

How the data were processed

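Total RNA of 3 transfectants of CAL 27 was labelled and hybridised to 1 Affymetrix array each. The deposited values are linear signal intensities per probe set, made with MAS5 per the submitters' processing notes, and the scaling target and detection calls are not given in the sources used here. Each array was multiplied (vector 1.11, nm23-H1 1.03, nm23-H2 0.881) to bring its mean between the 2nd and 98th percentiles to the geometric mean of the 3, values under the pooled median were set to it, and log2 was taken. Symbols came from the platform annotation, updated by gene number through RefSeq (19059 of 19071 probe sets with 1 symbol matched). The 1043 probe sets with several symbols and 2169 with none were left out. All 3 arrays entered the scaling and the floor.

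Members and lists were chosen with earlier results of these data known. Named were all members, up to 4 genes of each other list with the largest difference from vector, the 5 genes nearest to the member with the widest range at the chosen floor (SPARC), and the cell type markers as counts with their brightest. CDH1 was added beside CDH2 after its values were seen. A fold of 2 was counted. Alternatives were 3 other scalings, a lower (25th percentile) and a higher (70th) floor, an offset of 16 without any floor, other choices of probe set, a fold of 1.5, and the mean for the median. No test was possible, and the number of arrays limits the precision. The steps were tested on simulated data. Computation used pandas 2.3.3 with numpy 2.4.6 under Python 3.11.15, and figures matplotlib 3.10.9.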

Additional observations from a re-analysis of the deposited data

How the results depend on the processing

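Of 93 recomputed values of the members' counts and medians, 82 stayed within 1.5 times the count or within the probe error, and 11 did not. The probe error is a wide margin for medians near 0, and changes of sign could fall inside it. For nm23-H2 minus vector the median was -0.02, but -0.20 by the dimmest detected probe set and 0.22 with the floor at the 25th percentile. Its sign was therefore not stable. With the floor at the 25th percentile, 1 member (ZEB1) was at least 2-fold higher with nm23-H1 than with vector, and for nm23-H1 minus nm23-H2 the count of 2-fold lower members was 2 (VIM and CCN2). Over all 10689 genes measured at that floor, these counts were 659 and 649. With the floor at the 70th percentile, 1 member was at least 2-fold lower on each transfectant array than on vector, since the floor caps the fold of VIM. Over all 5032 genes measured there, 60 were 2-fold lower with nm23-H1 and 112 with nm23-H2. Averaging all probe sets of a gene left 1 with a 2-fold lower value for nm23-H1 minus vector, since the undetected SPARC probe set counts as no difference. With probe sets specific by name, 0 were lower on either array, because VIM has none of that kind and that of SPARC is under the floor, and the median for nm23-H1 minus vector was 0.23. As deposited, 1 member (TGFBI) was at least 2-fold higher with nm23-H2, beside 634 of all 7948 measured genes. At 1.5-fold, 1 was higher with nm23-H2 than with vector and 1 with nm23-H1 than with nm23-H2. With the nm23-H2 array left out, an alternative chosen after seeing the data, VIM was at -1.28 and SPARC at -1.71 for nm23-H1 minus vector. The plain _at probe set of THBS1 gave -0.56 for nm23-H2 minus vector. Outside the members, values as deposited brought ITGA5 (-0.99), KRT18 (-0.97) and ARHGEF17 (-0.997) with nm23-H1 and KRT8 (-0.70) and ARHGEF17 (-0.997) with nm23-H2 under 2-fold, and matched medians brought ITGA3 (0.98) with nm23-H2 under it. Signals near or under the floor limit VIM, CDH2, FN1, ZEB1, CCN2 and the nm23-H2 value of SPARC. No paired analysis was possible because each group was 1 array and the labels give no replicate numbers.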
